A study of Homo sapiens with 60 samples.

Results

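The genes described here are 9 genes of the thioredoxin system and of NADPH supply: NQO1, TXN, TXNRD1, SRXN1, OSGIN1, PGD, TKT, TALDO1 and ME1. They were chosen by name, as the rows of the deposited count table whose Ensembl identifiers map to these symbols, and all 9 were found among 60675 genes. Each passed the filter on low counts, as did 16890 genes in all. They were measured by RNA-seq in HT29, an established line of human colorectal adenocarcinoma cells. The cells had been kept for 24 h with 1 of 8 herbal extracts, each at 3 doses, or with DMSO as the vehicle, which gave 60 libraries, 3 of them from the vehicle. Yijin-tang and Soshiho-tang are decoctions of several herbs extracted with water, and the other extracts are ethanol extracts of single herbs. For 6 extracts the high dose was 500 µg/mL, the medium dose 100 µg/mL and the low dose 20 µg/mL. Of these, Yijin-tang, Schisandrae Fructus, Zizyphi Semen, Longan Arillus and Liriopis seu Ophiopogonis Tuber had 3 libraries per dose and Soshiho-tang had 2. Aucklandiae Radix was given at 370, 74 and 14.8 µg/mL. Polygalae Radix was given at 380, 76 and 15.2 µg/mL. Each of this last pair had 1 library per dose, so their values have no replicate check. All groups share the single cell line and the single time point. The labels give 0.1% DMSO for the vehicle and the series text gives 2%, and the difference could not be settled.

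Thioredoxin (TXN) is a small protein that reduces disulfides in other proteins, among them the peroxiredoxins that break down hydrogen peroxide. Thioredoxin reductase (TXNRD1), a selenoprotein, returns it to its reduced form with electrons from NADPH, and the oxidative branch of the pentose phosphate pathway and malic enzyme are known sources of that NADPH in the cytosol. In many epithelial cells the transcription factor NRF2 (gene NFE2L2), held back by KEAP1, raises several of these genes together when electrophiles or oxidants reach the cell.

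Library totals ran from 18161717 to 35128954 expected counts. The names of the libraries fall into sets: the vehicle has a set of its own, and each extract shares a set with 1 other extract, so an extract's difference from the vehicle and a difference between sets cannot be told apart. The differences between doses of an extract and between the extracts of a set lie within a set. A pair of libraries stood apart. In Yijin-tang low dose replicate 2, 10.7% of the counts fell on ribosomal protein genes, where the vehicle libraries had 4.63% to 5.40%. In Soshiho-tang high dose replicate 3, the 6 erythroid markers summed to 9.72 CPM (counts scaled to a common library total), where the next highest library had 0.329, and HBD of that list was at 0 in all 60 libraries. The same library had the highest PTPRC (1.27 CPM, next 0.11) and S100A9 (3.26 CPM, next 0.127) of the leukocyte list, whose sum of 961.9 to 2014 CPM over the libraries came mostly from LYZ (955.1 to 2013 CPM). The part of these RNAs in the results was not tested. Where leaving out both libraries ends or makes a call of a member, the call or value without them is given. Some values that turn or move without them are given too. Leaving out Soshiho-tang replicate 3 leaves 1 library at its high dose, whose p-values and calls then rest on the spread of other groups. All 10 epithelial markers had counts, with sums of 8410 to 18250 CPM, while the fibroblast, endothelium and hepatocyte lists summed to at most 4.12, 9.21 and 1.03 CPM. In bulk RNA, fewer cells with a transcript and less of it per cell cannot be told apart.

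In the vehicle libraries these were well expressed genes. Counts were put on a scale per kilobase of exon, with all libraries scaled alike, so that genes can be roughly compared. The length used was that of all annotated exons of a gene together, 1142 bases for TXN and 9507 for TKT. It need not be the length of the transcript measured, and the order of the genes depends on it. TXN stood highest at 772.8 ± 102.5 (SD, n = 3), followed by NQO1 at 414.9 ± 27.1. TALDO1 (283.6), PGD (218.6), TKT (168.3) and TXNRD1 (136.5) came next on this scale, SRXN1 (68.8) and ME1 (68.4) did not differ beyond their spread, and OSGIN1 was lowest at 12.2. All levels below are CPM scaled by TMM, which serve to compare 1 gene between libraries.

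**Figure D1:**
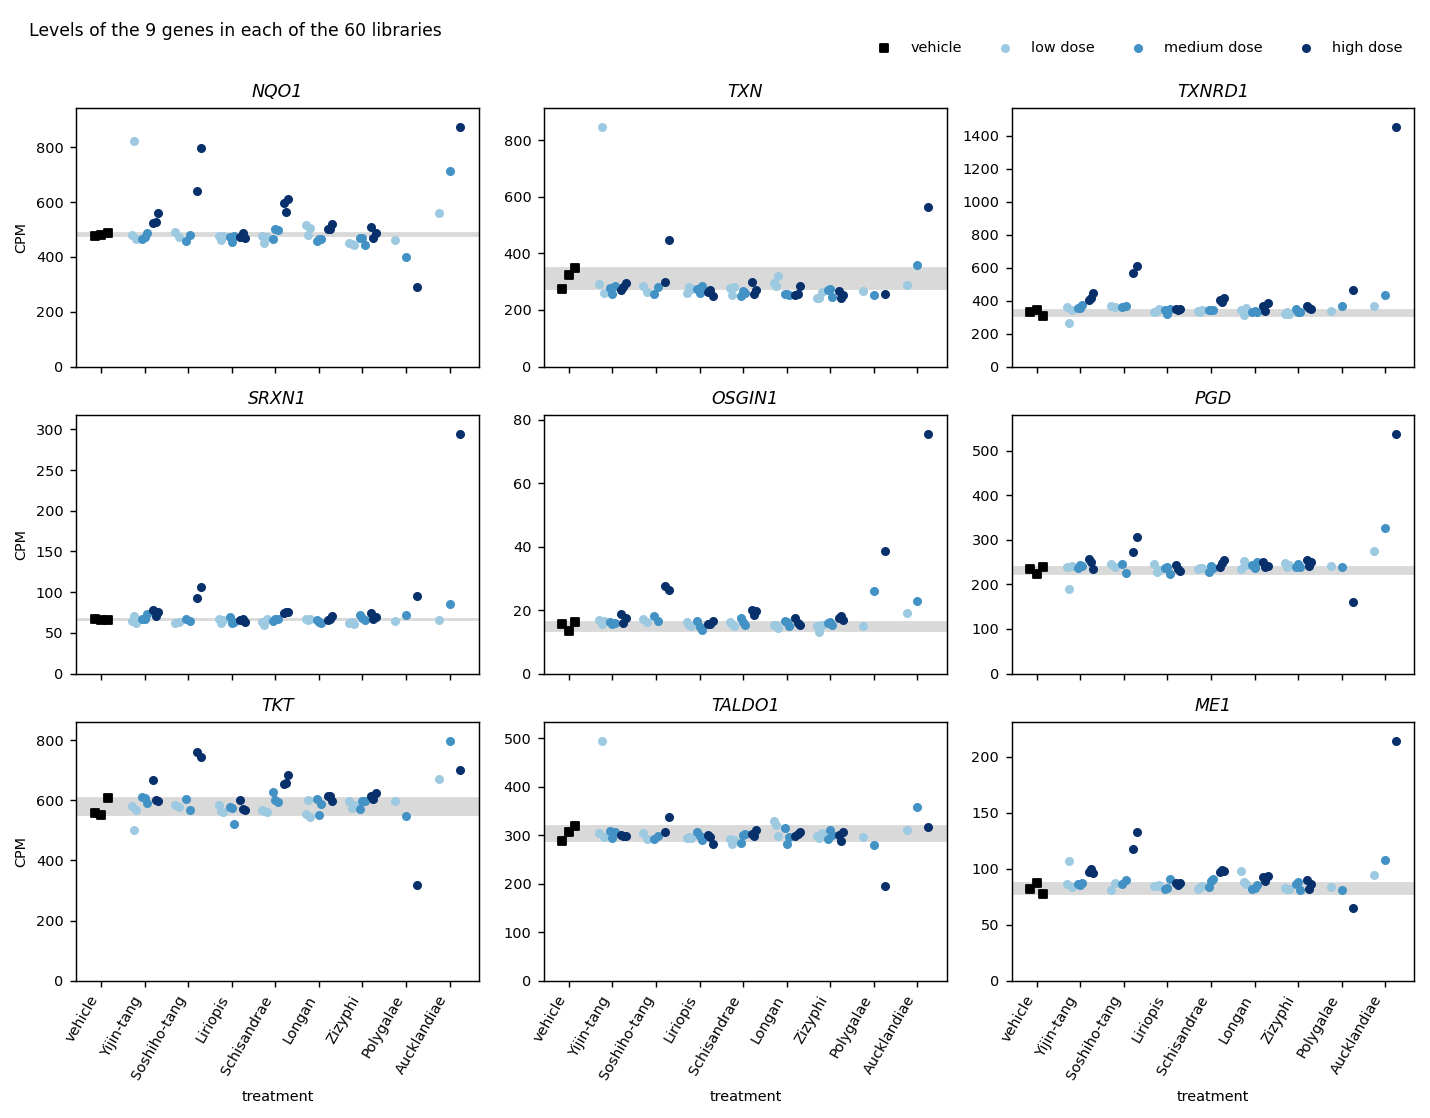
Levels in CPM (vertical axes from 0) of each gene in each of the 60 libraries, by treatment. Black squares are the vehicle libraries, the grey band is their range, and blue points darken with dose. The Aucklandiae Radix high dose library is the highest for 6 of the genes, TXNRD1 among them at 1453 CPM, and the low dose library of Yijin-tang that stands apart is the highest for TXN (846.2 CPM) and TALDO1 (494.3 CPM).

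TXNRD1 (chr12:104215779-104350305 of GRCh38, plus strand) rose at the high dose of 3 extracts. Its vehicle libraries held 332.6, 340.3 and 306.2 CPM. The Soshiho-tang high dose libraries held 569.9 and 612.1 CPM, while the medium dose libraries held 362.9 and 364.6 CPM and the low dose libraries 365.2 and 362.1 CPM. All 6 lay above the vehicle range, and the high dose libraries lay far above the other 4. At the high dose TXNRD1 was 1.81-fold the vehicle (log2 fold change 0.86 ± 0.07 SE, 95% interval 0.71 to 1.00, adjusted p = 3.76e-12, edgeR). Without replicate 3 and the other library that stands apart, the log2 fold change was 0.80. With Yijin-tang at the high dose the libraries held 403.8, 418.5 and 445.9 CPM (log2 fold change 0.37 ± 0.06, adjusted p = 0.000436), and with Schisandrae Fructus 403.6, 392.9 and 414.5 CPM (0.31 ± 0.06, adjusted p = 0.00756). Neither group overlapped the vehicle, and both fell short of the Soshiho-tang libraries. The Schisandrae Fructus call was lost when vehicle replicate 3 was left out (adjusted p = 0.139). Without the libraries that stand apart edgeR called TXNRD1 higher in 2 more groups. These were Longan Arillus at the high dose (0.16, adjusted p = 0.036) and Yijin-tang at the medium dose (0.15, adjusted p = 0.0351). In the single Aucklandiae Radix libraries TXNRD1 stood at 366.7, 435.1 and 1453 CPM from low to high dose, the last 4.45-fold the vehicle mean. The Polygalae Radix high dose library held 465.5 CPM (1.43-fold).

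The promoters of all 9 genes were searched for the core of the antioxidant response element (ARE), the sequence to which NRF2 binds with small MAF proteins. The RefSeq table of GRCh38.p14 promoters matched all 9 genes (10 promoters, as TXNRD1 has more than 1). The 250 bases before each RefSeq start were searched on both strands for TGACNNNGC, and distances below are counted from that start. This start need not be the end of the gene coordinates given here. The windows of NQO1, OSGIN1 and PGD lie within those coordinates, and all 250 bases of the NQO1 window lie in annotated exons. The core was present in 4 of the 10 promoters, those of TXNRD1, PGD and ME1, and in 10.9% of all 35116 promoters of the same length. It was absent from this window in NQO1, SRXN1, OSGIN1 and TKT, which also rose with Soshiho-tang, and in TXN and TALDO1. The promoters with a match are printed. The sequences are shown 5′ to 3′ on the strand of the gene, with the matching bases in capitals, for TXNRD1 (chr12:104215529-104215778, plus strand), ME1 (chr6:83431052-83431301, minus strand) and PGD (chr1:10398814-10399063, plus strand):
TXNRD1: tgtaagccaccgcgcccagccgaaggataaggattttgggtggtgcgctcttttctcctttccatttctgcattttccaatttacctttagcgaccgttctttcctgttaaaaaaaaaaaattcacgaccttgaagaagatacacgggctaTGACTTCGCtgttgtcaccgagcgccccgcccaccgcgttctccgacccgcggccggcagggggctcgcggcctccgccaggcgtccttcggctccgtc
ME1: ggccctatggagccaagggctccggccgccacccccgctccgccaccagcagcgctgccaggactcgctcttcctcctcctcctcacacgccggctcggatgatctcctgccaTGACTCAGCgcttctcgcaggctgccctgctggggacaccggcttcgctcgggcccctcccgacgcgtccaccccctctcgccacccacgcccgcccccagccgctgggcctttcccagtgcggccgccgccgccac
PGD: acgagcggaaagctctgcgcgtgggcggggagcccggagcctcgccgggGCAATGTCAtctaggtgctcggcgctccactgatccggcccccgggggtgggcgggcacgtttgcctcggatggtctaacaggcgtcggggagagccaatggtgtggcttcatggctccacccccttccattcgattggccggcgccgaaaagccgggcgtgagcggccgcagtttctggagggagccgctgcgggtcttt
The match in TXNRD1, TGACTTCGC, begins 99 bases before the start of the gene. A second TXNRD1 promoter, all 250 bases of which lie in annotated exons, holds GCTTTGTCA, a match on the opposite strand that begins 102 bases before its start. In PGD the match GCAATGTCA is on the opposite strand and begins 201 bases before the start. In ME1 the match TGACTCAGC begins 137 bases before the start, and its opening letters also make the AP-1 site TGANTCA, which 6.57% of all promoters hold and, of the other members, OSGIN1. GCGTG, the core to which the aryl hydrocarbon receptor binds, was found in promoters of TXN, TXNRD1, OSGIN1, PGD and ME1, and in 32.2% of all promoters. A match is a description of the letters, and no match says only that these letters are not in this window.

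SRXN1 (chr20:646615-653370, minus strand), the sulfiredoxin that repairs overoxidised peroxiredoxins, varied little without extract, at 66.5, 66.2 and 66.0 CPM in the vehicle. The Soshiho-tang high dose libraries held 92.4 and 105.8 CPM, clear of the vehicle. This was 1.5-fold (log2 fold change 0.58 ± 0.06, adjusted p = 1.07e-09, and 0.47 without the libraries that stand apart). The medium dose libraries (66.6 and 64.5 CPM) fell on both sides of the vehicle range, and those of the low dose (62.0 and 63.4 CPM) lay below it. At the high dose Schisandrae Fructus libraries held 74.5, 75.2 and 75.1 CPM and those of Yijin-tang 77.5, 70.9 and 75.6 CPM. Both groups lay above every vehicle library, yet their log2 fold changes of 0.18 ± 0.05 and 0.17 ± 0.05 did not pass the test (adjusted p = 0.131 and 0.125). Without the libraries that stand apart both did (adjusted p = 0.0102 and 0.00961). The single Aucklandiae Radix libraries held 65.9, 85.4 and 294.1 CPM from low to high dose, the last 4.44-fold the vehicle mean.

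TXN (chr9:110243811-110256640, minus strand) is the substrate of the reductase. Its vehicle libraries spread widely, at 274.1, 324.5 and 347.2 CPM. The Soshiho-tang high dose libraries held 298.3 and 448.6 CPM, the higher value in replicate 3, and the difference did not pass the test (log2 fold change 0.25 ± 0.22, 95% interval −0.20 to 0.69, adjusted p = 0.633). The sign turned without the libraries that stand apart (−0.08). Yijin-tang low dose replicate 2 held 846.2 CPM where its group partners held 292.3 and 259.8 CPM. With that library and Soshiho-tang replicate 3 left out, TXN was called lower than the vehicle at the high dose of Liriopis seu Ophiopogonis Tuber (log2 fold change −0.27), Longan Arillus (−0.25) and Zizyphi Semen (−0.31), with adjusted p of 0.0109, 0.036 and 0.00547. At the medium and low doses of Zizyphi Semen, Schisandrae Fructus and Liriopis seu Ophiopogonis Tuber, and at the medium dose of Longan Arillus, TXN was then called lower as well. None of the 3 high dose differences was called with all 54 libraries (adjusted p = 0.8, 0.968 and 0.864), and each compares a set with the vehicle set. The Aucklandiae Radix high dose library held 563.3 CPM, 1.80-fold the vehicle mean, against 4.45-fold for TXNRD1 and 4.44-fold for SRXN1 in the same library.

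OSGIN1 (chr16:83948282-83966332, plus strand), which encodes a growth inhibitor induced by oxidative stress, was the least abundant of the 9 and among the most responsive. Vehicle libraries held 15.7, 13.5 and 16.4 CPM. Those of Soshiho-tang at the high dose held 27.7 and 26.3 CPM, with no overlap (1.78-fold, log2 fold change 0.83 ± 0.08, adjusted p = 8.03e-11, and 0.86 without the libraries that stand apart). Those of Schisandrae Fructus held 19.9, 18.3 and 19.6 CPM, above every vehicle library (0.35 ± 0.07, adjusted p = 0.00506, lost without vehicle replicate 2 at adjusted p = 0.0855). OSGIN1 also had the highest ratio of the 9 to the vehicle mean in the high dose libraries of Polygalae Radix and Aucklandiae Radix. It stood at 15.1, 26.1 and 38.7 CPM from low to high dose of Polygalae Radix, the last 2.55-fold the vehicle mean with an exact Clopper-Pearson 95% interval of 36.4 to 41.1 CPM. In Aucklandiae Radix it stood at 18.9, 22.9 and 75.4 CPM, the last 4.97-fold with an interval of 71.9 to 79.0 CPM. These intervals cover counting error only.

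NQO1 (chr16:69706996-69726951, minus strand), a quinone reductase that uses NADH or NADPH, had fractional expected counts in all 60 libraries, so part of its reads were shared with other features and its values are less certain. Vehicle libraries held 477.2, 481.1 and 488.3 CPM. At the high dose Soshiho-tang libraries held 642.0 and 798.8 CPM (1.49-fold, log2 fold change 0.58 ± 0.11, adjusted p = 0.00031). Both exceeded every vehicle library, and they differed from each other by more than the vehicle libraries did. The call was lost when replicate 3 alone was left out, which leaves 1 library in the group. When the Yijin-tang library that stands apart was left out as well, the log2 fold change was 0.41 and NQO1 was called. Both fits have 1 library at this dose, so neither outcome shows whether the rise rests on replicate 3. Schisandrae Fructus libraries held 597.9, 564.7 and 611.7 CPM and Yijin-tang libraries 522.0, 527.8 and 560.6 CPM at the high dose. These groups did not overlap the vehicle, and their log2 fold changes of 0.29 ± 0.10 and 0.15 ± 0.10 did not pass the test with all libraries (adjusted p = 0.228 and 0.675) but did without the libraries that stand apart (adjusted p = 5.5e-07 and 0.00536). The single libraries went in opposite directions: 460.8, 401.2 and 290.3 CPM from low to high dose of Polygalae Radix, and 560.0, 711.4 and 872.9 CPM of Aucklandiae Radix.

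ME1 (chr6:83210389-83431071, minus strand) is the cytosolic malic enzyme, which makes NADPH. It stood at 81.8, 87.0 and 77.5 CPM in the vehicle and at 117.5 and 132.5 CPM with Soshiho-tang at the high dose, a 1.52-fold rise with no overlap (log2 fold change 0.61 ± 0.07, adjusted p = 7.52e-09, and 0.51 without the libraries that stand apart). Yijin-tang (96.6, 100.0 and 95.8 CPM) and Schisandrae Fructus (97.2, 98.5 and 98.1 CPM) gave rises of 0.25 ± 0.06 each at the high dose (adjusted p = 0.0269 and 0.0278), and neither group overlapped the vehicle. Both calls were weak: each held in 1 of the 6 fits that leave out 1 library, with the highest adjusted p of 0.239 and 0.282 without vehicle replicate 3. Without the libraries that stand apart edgeR also called ME1 higher with Longan Arillus. This held at the high dose (0.16, adjusted p = 0.0389) and the low dose (0.15, adjusted p = 0.0383). In the Aucklandiae Radix high dose library ME1 stood at 213.7 CPM, 2.60-fold the vehicle mean, and in that of Polygalae Radix at 64.6 CPM, the lowest of the 60 libraries.

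PGD (chr1:10398592-10420144, plus strand), the phosphogluconate dehydrogenase of the oxidative pentose phosphate branch, held 234.3, 223.0 and 238.5 CPM in the vehicle. With Soshiho-tang at the high dose it held 273.3 and 307.4 CPM, above every vehicle library (log2 fold change 0.32 ± 0.06, adjusted p = 0.000472). The call was lost without replicate 3, which leaves 1 library. Without both libraries that stand apart the log2 fold change was 0.23 and PGD was called, again with 1 library at this dose. TKT (chr3:53224707-53256052, minus strand), the transketolase of the non-oxidative branch, held 556.7, 552.7 and 607.9 CPM in the vehicle and 761.8 and 744.6 CPM with Soshiho-tang (0.40 ± 0.06, adjusted p = 2.73e-06, and 0.41 without the libraries that stand apart). Here replicate 3 was the lower of the pair. With Schisandrae Fructus TKT held 653.1, 656.6 and 686.2 CPM, again above the vehicle (0.22 ± 0.05, adjusted p = 0.0278, lost without vehicle replicate 2 at adjusted p = 0.142). TALDO1 (chr11:747329-765024, plus strand), the transaldolase that works beside TKT, stood at 288.9, 305.9 and 318.5 CPM in the vehicle and at 307.3 and 337.7 CPM with Soshiho-tang. These overlapped (0.08 ± 0.10, 95% interval −0.12 to 0.29, adjusted p = 0.75, and 0.01 without the libraries that stand apart). Only a rise in Yijin-tang at the low dose was called for TALDO1 against the vehicle (log2 fold change 0.26, adjusted p = 0.0469), and it rested on replicate 2 (494.3 CPM against 305.0 and 297.2 CPM). Without that library the log2 fold change was −0.02.

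**Figure D2:**
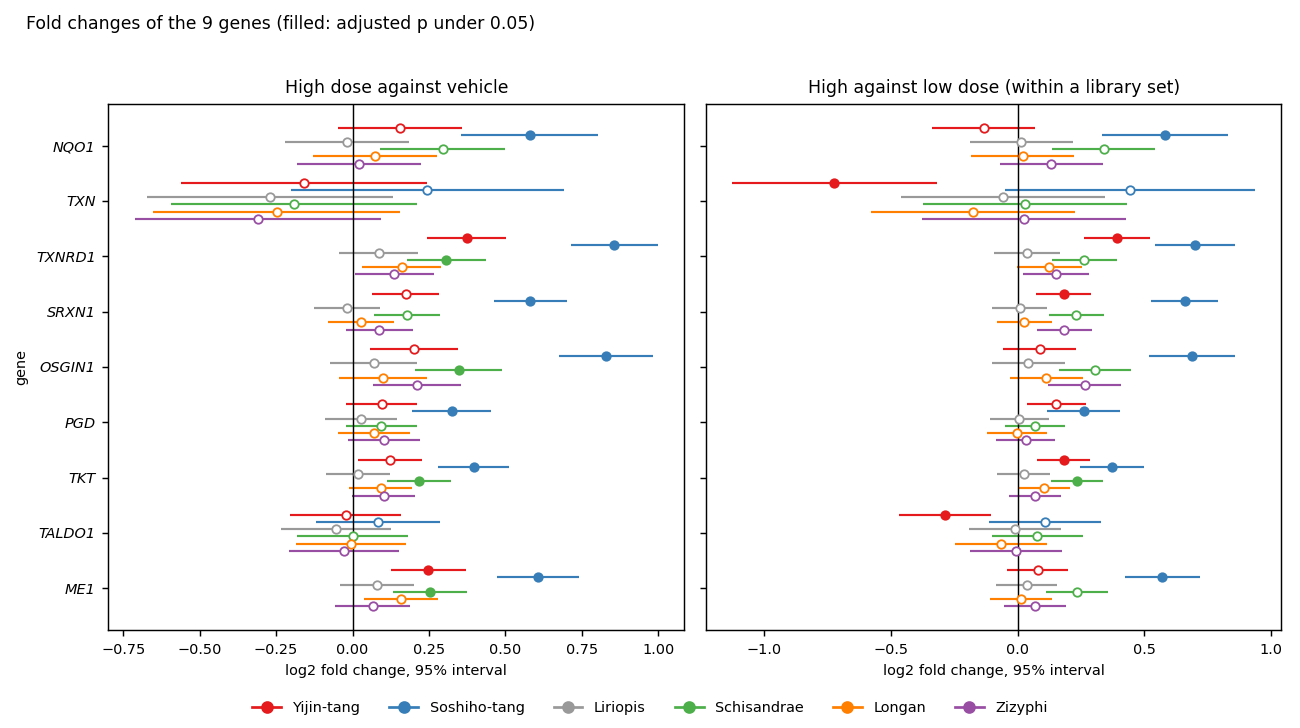
Log2 fold changes (horizontal axes) with 95% intervals of the 9 genes in the 6 extracts with replicates, at the high dose against the vehicle (left) and against the low dose (right). Filled points passed the test at an adjusted p under 0.05. Soshiho-tang is filled for 7 of the 9 genes in both panels, and TXN and TALDO1 are the exceptions.

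Counted over the 9 genes, Soshiho-tang at the high dose gave 7 higher and none lower (7.93% of all genes were called, 4.17% higher), with a median log2 fold change of 0.58 beside 0 over all genes (0.41 without the libraries that stand apart). Schisandrae Fructus gave 4 higher (TXNRD1, OSGIN1, TKT and ME1, against 0.693% of all genes called, 0.438% higher), with a median of 0.22, and 1 to 3 in the fits that leave out 1 library. Yijin-tang gave 2 higher (TXNRD1 and ME1, against 1.05% called, 0.557% higher), with a median of 0.15. No member was called at the high dose of Liriopis seu Ophiopogonis Tuber (0.45% of all genes), Longan Arillus (0.0829%) or Zizyphi Semen (0.16%) by edgeR. At an unadjusted p under 0.05 the last 3 extracts had 0, 2 and 2 members, and DESeq2 called 0 in each. At the medium doses 0 of 54 values were called by edgeR, where the shares of all genes called were 0.42% (Yijin-tang), 0.237% (Soshiho-tang), 0.474% (Schisandrae Fructus), 0.373% (Liriopis seu Ophiopogonis Tuber), 0.0118% (Longan Arillus) and 0.0296% (Zizyphi Semen). Of these 54, 3 had an unadjusted p under 0.05 and DESeq2 called 0. At the low doses 1 of 54 was called, the TALDO1 value above, against 12.1% of all genes called and 8.58% called higher with Yijin-tang. In the same order, the shares for the other extracts at the low dose were 0.101%, 0.16%, 0.491%, 0.107% and 0.0355%. Without the libraries that stand apart the members called at the high dose numbered 7 (Soshiho-tang), 6 (Schisandrae Fructus), 4 (Yijin-tang), 3 (Longan Arillus), 1 (Liriopis seu Ophiopogonis Tuber) and 1 (Zizyphi Semen), and the shares of all genes called were, in the same order, 12.7%, 6.39%, 7.46%, 2.31%, 5.06% and 3.25%.

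Members above every vehicle library at the high dose numbered 7 with Soshiho-tang (16.4% of all genes), 7 with Schisandrae Fructus (10.1%), 4 with Yijin-tang (8.86%), 4 with Zizyphi Semen (8.54%), 3 with Longan Arillus (7.47%) and 1 with Liriopis seu Ophiopogonis Tuber (8.9%). The 7 of Soshiho-tang were those that passed its test. With Schisandrae Fructus they were NQO1, TXNRD1, SRXN1, OSGIN1, PGD, TKT and ME1 too, with smaller differences.

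Within Soshiho-tang, the same 7 genes rose from the low to the high dose (6.29% of all genes called, 3.26% higher). The log2 differences ran from 0.26 ± 0.07 for PGD (adjusted p = 0.0165) to 0.70 ± 0.08 for TXNRD1 (adjusted p = 1.8e-08), with SRXN1 at 0.66, OSGIN1 at 0.69, NQO1 at 0.58, ME1 at 0.57 and TKT at 0.37. Without the libraries that stand apart 6 remained called (7.95% of all genes), and PGD did not (0.17, adjusted p = 0.0605). Within Schisandrae Fructus TKT was higher at the high dose (0.24 ± 0.05, adjusted p = 0.0289, against 0.189% of all genes called, 0.118% higher), and SRXN1 and OSGIN1 missed the threshold (0.23 and 0.30, adjusted p = 0.0504 each). Without the libraries that stand apart, which belong to another set, 6 were called (0.533% of all genes): NQO1, TXNRD1, SRXN1, OSGIN1, TKT and ME1. Within Yijin-tang 5 members were called (21% of all genes, 6.94% higher and 14.1% lower): TXNRD1 (0.39), SRXN1 (0.18) and TKT (0.18) higher, TXN (−0.72) and TALDO1 (−0.29) lower at the high dose. The falls of TXN and TALDO1 rested on low dose replicate 2. Without it and the Soshiho-tang library 0.675% of all genes were called, and the 4 members called were TXNRD1 (0.27), SRXN1 (0.24), ME1 (0.20) and NQO1 (0.19), all higher, and TXN and TALDO1 stood at 0.03 and −0.01. No member was called between the doses of Liriopis seu Ophiopogonis Tuber (0% of all genes), Longan Arillus (0.0178%) or Zizyphi Semen (0.0533%) by edgeR, where 0, 1 and 3 had an unadjusted p under 0.05, or by DESeq2.

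Between the 2 decoctions at the high dose, 7 members were lower with Yijin-tang than with Soshiho-tang (3.72% of all genes called, 2.1% lower): OSGIN1 by 0.63 ± 0.08 on the log2 scale, TXNRD1 by 0.48 ± 0.07, NQO1 by 0.42 ± 0.11, SRXN1 by 0.41 ± 0.06, ME1 by 0.36 ± 0.07, TKT by 0.27 ± 0.06 and PGD by 0.23 ± 0.06. Adjusted p ran from 1.75e-07 (OSGIN1) to 0.0313 (PGD). With the libraries that stand apart left out 6 were called (5.13% of all genes), the PGD call was lost (adjusted p = 0.154) and NQO1 stood at −0.25. NQO1, PGD and ME1 lost theirs when Soshiho-tang replicate 3 alone was left out (adjusted p = 0.561, 0.602 and 0.0848). Between Schisandrae Fructus and Liriopis seu Ophiopogonis Tuber no member was called by edgeR (0.0947% of all genes), although 6 had an unadjusted p under 0.05 and DESeq2 called 1. OSGIN1 was nearest, at 0.28 higher with Schisandrae Fructus (95% interval 0.14 to 0.42, adjusted p = 0.16), and 6 were called, all higher, without the libraries that stand apart (0.444% of all genes). Between Zizyphi Semen and Longan Arillus none was called by edgeR (0.0237% of all genes) or DESeq2, and none had an unadjusted p under 0.05, with differences from −0.09 (ME1) to 0.11 (OSGIN1).

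**Figure D3:**
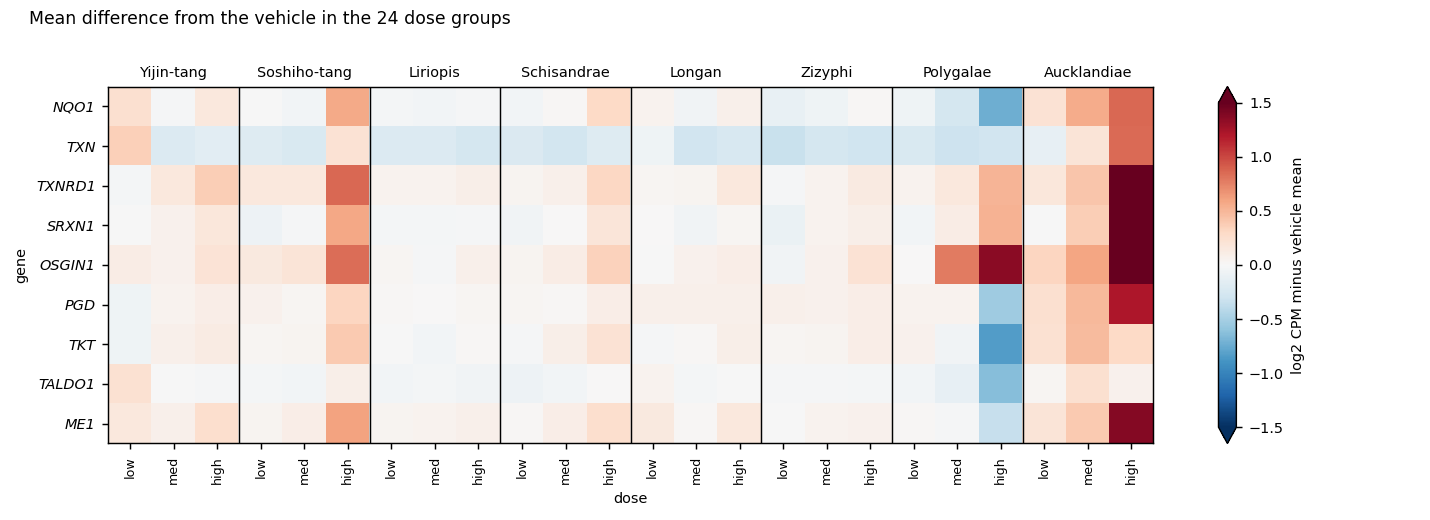
Mean log2 CPM of each gene (rows) in the 24 dose groups (columns) minus the vehicle mean, with red higher and blue lower and the colour scale ending at ±1.5. Red gathers at the high doses of Soshiho-tang and Aucklandiae Radix, and the Polygalae Radix high dose column holds red for TXNRD1, SRXN1 and OSGIN1 and blue for the other 6 genes.

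The largest differences of all were in the Aucklandiae Radix high dose library. There 7 of the 9 genes stood at least 1.5-fold above the vehicle mean (15.9% of all genes did) and none 1.5-fold below (20.3%). OSGIN1, TXNRD1 and SRXN1 were 4.97-fold, 4.45-fold and 4.44-fold the vehicle mean, and ME1 and PGD 2.60-fold and 2.31-fold. NQO1 and TXN stood at 1.81-fold and 1.80-fold, while TKT (701.6 CPM, 1.23-fold) and TALDO1 (317.1 CPM, 1.04-fold) were close to it. TKT and TALDO1 were higher at the medium dose, at 797.0 and 357.9 CPM. The median log2 ratio of the 9 genes was 1.21, beside −0.01 over all genes. This library also had the highest sum of the 6 fibroblast markers (4.12 CPM, next 3.29, mostly COL1A1 at 3.22), with 3 of them at 0. The sum of the 4 endothelium markers was the highest too (9.21 CPM, next 2.47, mostly PECAM1 at 8.83), with 2 of them at 0. CD68 of the leukocyte list was highest here (52.2 CPM, next 11.3). The leukocyte list as a whole summed to 1112 CPM, below the vehicle (1465 to 1547), with 6 of its 10 markers at 0. The part of these RNAs in the levels of the 9 genes was not tested.

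The Polygalae Radix high dose library split the group. OSGIN1 was the sole member at least 1.5-fold higher (5.39% of all genes), with TXNRD1 and SRXN1 at 1.43-fold each. NQO1 (0.602-fold), TKT (0.559-fold) and TALDO1 (0.644-fold) were at least 1.5-fold lower (8.99% of all genes), and PGD (0.689-fold), ME1 (0.788-fold) and TXN (0.818-fold) were lower by less. In the same library the 10 epithelial markers summed to 8410 CPM (vehicle 12120 to 14140) and the leukocyte list to 961.9 CPM (vehicle 1465 to 1547), the lowest of the 60 libraries for both lists, and their part in these levels was not tested. With 1 library per dose no test is possible. At the medium dose the log2 ratios to the vehicle mean were 0.78 for OSGIN1 and −0.265 for NQO1, smaller than at the high dose, while TXN stood at −0.31 (−0.29 at the high dose) and PGD at 0.05 (−0.54 at the high dose).

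**Figure D4:**
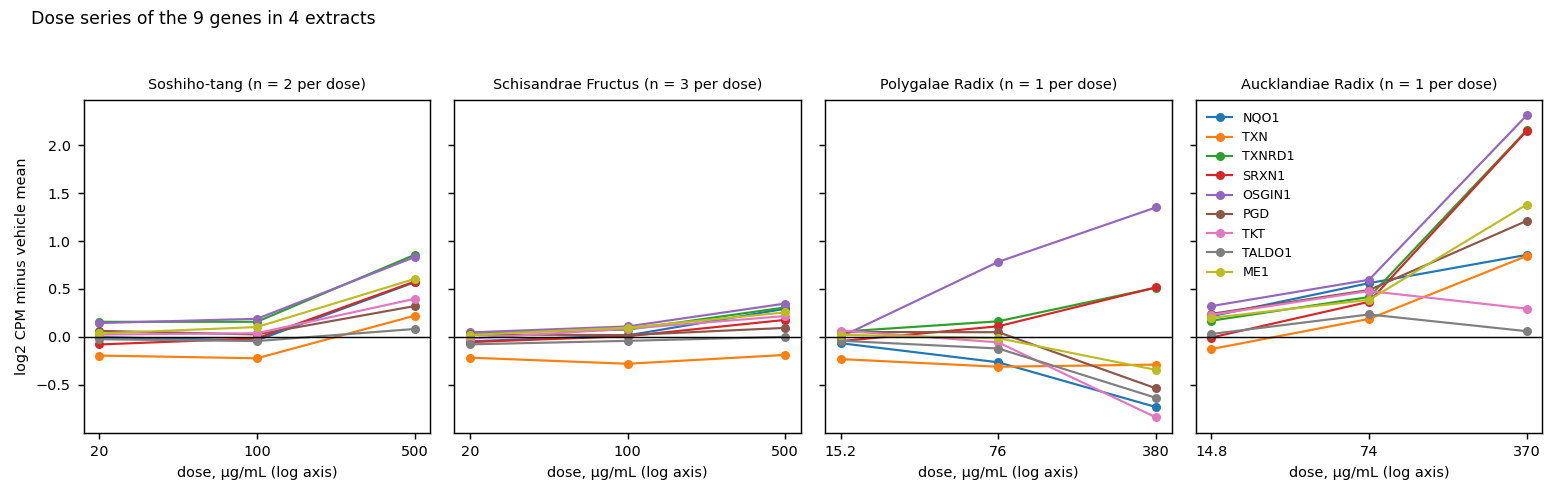
Mean log2 CPM minus the vehicle mean (vertical axis) against dose in µg/mL (log axis) for 4 extracts, 1 line per gene. In Soshiho-tang and Schisandrae Fructus the lines other than TXN lie within 0.2 of 0 up to 100 µg/mL and part at 500 µg/mL. TXN lies at −0.19 to −0.28 at 20 and 100 µg/mL there. In Aucklandiae Radix OSGIN1, TXNRD1 and SRXN1 lie above 2 at 370 µg/mL, and NQO1, TXN, TKT and TALDO1 below 1.

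Other genes of the same biology were read from lists. Of 20 tested partners of thioredoxin and glutaredoxin, 1 rose and 1 fell with Soshiho-tang at the high dose, a share near that of all genes called there (7.93%). GSR, the glutathione reductase that spends NADPH, rose by 0.34 ± 0.06 (adjusted p = 5.15e-05), and TXNIP, which binds and inhibits thioredoxin, fell by 0.60 ± 0.06 on the log2 scale (adjusted p = 2.81e-09). The list's median was 0.04. Among 17 other enzymes of NADPH metabolism and the pentose phosphate pathway 3 rose and 2 fell. Those that rose included ME3, a mitochondrial malic enzyme (0.31 ± 0.08, adjusted p = 0.0103), and MTHFD1L, a mitochondrial folate enzyme (0.16 ± 0.05, adjusted p = 0.0492). IDH1 and IDH2, isocitrate dehydrogenases that also make NADPH, fell by 0.29 and 0.30 on the log2 scale (adjusted p = 0.00527 and 0.000956). Of 11 genes for NRF2 and its regulators 6 rose, NFE2L2 itself by 0.17 ± 0.05 and KEAP1 by 0.34 ± 0.06 (adjusted p = 0.0285 and 2.54e-05). Of 25 other NRF2 targets 17 rose and none fell, led by ALDH3A1 (1.59 ± 0.08), and of 8 targets of the aryl hydrocarbon receptor all 8 rose, among them CYP1B1 (3.02 ± 0.07). NFE2L2 is counted both there and with the regulators. Without the libraries that stand apart, 1 library remains at this dose. The lists' median log2 fold changes were then −0.07 (partners), −0.001 (NADPH enzymes), 0.19 (NRF2 and regulators), 0.34 (NRF2 targets) and 1.13 (receptor targets). With all libraries they were 0.04, 0.08, 0.34, 0.46 and 1.11, in the same order.

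At the high dose of Schisandrae Fructus, 8 of the 25 other NRF2 targets rose, with HMOX1 (0.76 ± 0.10, adjusted p = 6.27e-06) and SLC7A11 (0.75 ± 0.10, adjusted p = 5.92e-06) the highest, as did 3 of the 8 receptor targets and, of the 17 NADPH enzymes, ME3 (0.37 ± 0.07). Leaving out the libraries that stand apart, these numbers were 12, 5 and 4, where 6.39% of all genes were called (0.693% with all libraries). None of the 20 thioredoxin and glutaredoxin partners passed the test there by edgeR, and none had an unadjusted p under 0.05, while 2 were called lower without the libraries that stand apart. With Yijin-tang 5 NRF2 targets rose, 5 receptor targets rose and IDH2 fell by 0.24 on the log2 scale (adjusted p = 0.0177). Once both libraries that stand apart were left out, 10 NRF2 targets were higher and 1 lower, 5 receptor targets were higher, and 1 partner was higher and 3 lower. The share of all genes called then was 7.46%, against 1.05% with all libraries. In the Aucklandiae Radix high dose library 20 of the 25 NRF2 targets stood at least 1.5-fold above the vehicle mean (15.9% of all genes did). GSR was higher by 1.46 on the log2 scale, and TXNIP stood at −1.96 and IDH1 at −0.72. In that of Polygalae Radix 5 NRF2 targets were at least 1.5-fold higher (5.39% of all genes) and 1 lower (8.99%). IDH1 stood at −0.97 and TXNIP at −0.18.

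Across the 24 dose groups pairs of members had like or unlike patterns. These Pearson correlations of group means describe groups that share a vehicle, library sets and scaling. Over the 24 groups TXNRD1 and SRXN1 followed each other most closely (r = 0.986), and PGD and ME1 next (r = 0.943). Over the 18 with replicates the closest pair was NQO1 and ME1 (r = 0.955), ahead of TXNRD1 and SRXN1 (r = 0.946). TXN and TXNRD1 had r = 0.791 over the 24 groups and 0.399 over the 18 with replicates (0.895 and 0.582 without the libraries that stand apart). Over the 24 groups SRXN1 had almost no relation to TALDO1 (r = 0.008), and OSGIN1 and TALDO1 the lowest of all (r = −0.226). Over the 18 groups with replicates, which leave out the Aucklandiae Radix and Polygalae Radix libraries, TXNRD1 and TKT had r = 0.927, against 0.251 over all 24. PGD and ME1 had 0.763 over the 18 groups, SRXN1 and TALDO1 0.309, and OSGIN1 and TALDO1 0.293. Over 24 groups, leaving out the libraries that stand apart moved some pairs with TXN. TXN and PGD went from 0.769 to 0.897, and TXN and TALDO1 from 0.471 to 0.367. The other pairs named above moved little over 24 groups. Without those libraries TXNRD1 and SRXN1 had 0.985, PGD and ME1 0.949, SRXN1 and TALDO1 0.013, and OSGIN1 and TALDO1 −0.232. TXNRD1 and TKT then had 0.926 over the 18 groups and 0.239 over the 24. Among 10520 genes that averaged 5 CPM or more, those with the pattern over 24 groups most like the members' mean were ASPH (r = 0.979), CBR1 (0.969), PROCR (0.968), SSR1 (0.967) and TRIM16L (0.967). Over the 18 groups with replicates they were TRIM16L (0.973), AMIGO2 (0.967), IFRD1 (0.966), AKR1B10 (0.959) and ALDH3A1 (0.956). Leaving out the libraries that stand apart, ASPH and CBR1 were still among the highest 5 over 24 groups, and TRIM16L, IFRD1 and ALDH3A1 over 18. Of the genes like NQO1, PIR had r = 0.957 over 24 groups and AKR1C3 0.959 over 18 (0.943 and 0.964 without those libraries).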

How the data were processed

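The libraries of HT29 mRNA gave read pairs of 100 bp, per the labels' protocols. RSEM 1.3.3, STAR 2.7.3a, Trim Galore 0.6.5 and FastQC 0.11.9 are listed in the submitters' processing notes, beside the build GRCh38. The annotation release and any strand setting of the counting are not given in the sources used here, so reads of a gene and of an antisense neighbour may not be separated (NQO1 and TXNRD1 have one in GENCODE 29). The authors deposited expected counts per gene for 60 libraries, not normalized, of which 89.9% lay within 1e-09 of a whole number. Rounded counts of the 54 libraries in 19 groups with at least 2 libraries were fitted with edgeR 4.0.16 (filterByExpr, TMM, quasi-likelihood test, group as the only term), in 27 comparisons with Benjamini-Hochberg adjustment over all 16890 genes and a threshold of 0.05. Errors are SE for log2 fold changes and SD for CPM, and intervals are 95%. CPM used TMM over all 60 libraries, and correlations used log2 CPM with a prior count of 2. The p-values measure only the spread between these libraries, which the labels do not call separate cultures, and TMM assumes that most genes do not change. The fit was also run on simulated counts with a common spread for all genes, and the outcome is not reported here. The members and lists were chosen with earlier results of these data known. All 9 members are named. Other named genes are called genes of the lists at the high dose (up to 3 of the largest change per list and comparison), any other list gene a sentence needed, and the 5 most like the members' mean. Tests of dose differences between extracts were added, with list counts and correlations that omit the 2 libraries standing apart, after seeing the data. Promoter sequences are from RefSeq (GRCh38.p14). Values of some list genes are not reported here. The wortmannin control named in the series text is not analysed here. No comparison (0 of 27) had 3 or more same-numbered replicates that all deviated together (r over 0.1), so no pairing was used. Comparisons with Soshiho-tang share 2 replicate numbers and could not meet this rule. DESeq2 1.42.0 and 6 other kinds of alternative were run.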

Additional observations from a re-analysis of the deposited data

Results flagged for a closer look

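The difference between high and low dose was compared between the 2 decoctions, and for 5 genes it differed by an edgeR test of the difference itself (Benjamini-Hochberg adjusted), where 4.38% of all genes did. Yijin-tang minus Soshiho-tang, on the log2 scale, was −0.71 for NQO1 (adjusted p = 0.00696), −1.17 for TXN (0.0302), −0.48 for SRXN1 (0.000451), −0.60 for OSGIN1 (0.000748) and −0.49 for ME1 (0.00143). Without Yijin-tang low dose replicate 2 and Soshiho-tang high dose replicate 3, the values were −0.22 for NQO1 (adjusted p = 0.0815), −0.08 for TXN (0.87), −0.32 for SRXN1 (0.0291), −0.66 for OSGIN1 (0.000769) and −0.28 for ME1 (0.057), and TXNRD1 was also called (−0.37, adjusted p = 0.00471), with 1.85% of all genes called. Between Schisandrae Fructus and Liriopis seu Ophiopogonis Tuber, NQO1 was called in that fit (0.33, adjusted p = 0.000434, against 0.0592% of all genes) and not with all libraries. Between the decoctions, the calls of SRXN1 and OSGIN1 are the ones found both ways, and the second way has 1 Soshiho-tang high dose library.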

How the results depend on the processing

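Of 2889 values of single genes under other settings, 2728 kept their direction and side of the threshold, 84 lost a call, 72 gained one and 5 reversed. The reversals all come from fits without Yijin-tang low dose replicate 2. TALDO1 at the low dose against the vehicle became −0.0165 without the 2 libraries that stand apart and −0.0166 without that library alone. High against low dose, TXN became 0.0320 and 0.0321, and NQO1 became 0.1858 (called) without the pair. Where low dose replicate 3 was the one left out instead, TALDO1 stood at 0.3922 and TXN at −1.0114.

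Counts of members called moved by over 1.5 times in 50 of 228 cases. At the high dose against the vehicle, Yijin-tang went from 2 to 1 with no filter, 1 with only the compared groups in the fit and 4 without the pair of libraries. Schisandrae Fructus went from 4 to 0 with no filter and 2 with only the compared groups. Without the pair, Liriopis seu Ophiopogonis Tuber had 1, Longan Arillus 3 and Zizyphi Semen 1. High against low dose, Yijin-tang went from 5 to 3 with no filter and 0 with only the compared groups, and Soshiho-tang from 7 to 4 with only the compared groups. Schisandrae Fructus went from 1 to 3 (RLE), 0 (no filter), 6 (only the compared groups), 6 (without the pair) and 5 (DESeq2). With only the compared groups, Yijin-tang against Soshiho-tang gave 4 and Schisandrae Fructus against Liriopis seu Ophiopogonis Tuber 2, the latter 6 without the pair and 1 with DESeq2. The medium doses gave 5 without the pair, and the low doses 3 (RLE), 0 (only the compared groups), 4 (without the pair) and 4 (DESeq2). The cause was not tested. Fits of only the compared groups have fewer samples to estimate the spread, and the part of this was not tested either.

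The replicate block changed 4 of 243 calls of single genes. With the block Schisandrae Fructus high against low dose gave 4 and the low doses 0.

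Leaving out 1 library at a time, counts ran from 1 to 2 for Yijin-tang against the vehicle, 5 to 7 for Soshiho-tang, 1 to 3 for Schisandrae Fructus, and 0 to 0 for the other 3 extracts. High against low dose they ran from 2 to 7 for Yijin-tang (2 without high dose replicate 1 or low dose replicate 2), 5 to 7 for Soshiho-tang and 0 to 1 for Schisandrae Fructus. Yijin-tang against Soshiho-tang ran from 4 to 7, the 4 without Soshiho-tang replicate 3, where a lone library is assumed to vary like the other groups. The low doses ran from 0 to 4. With 1 library per dose, Aucklandiae Radix and Polygalae Radix allow no test.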
